A study of Mus musculus with 3 samples.

Results

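The genes described here encode the machinery of oxidative phosphorylation. Nuclear members were all genes whose symbol starts with Ndufa, Ndufb, Ndufc, Ndufs, Ndufv, Uqcr, Cox4 to Cox8 or Atp5, together with Sdha, Sdhb, Sdhc and Sdhd, without names ending in -ps. This gave 89 nuclear genes, and the 13 protein-coding genes of the mitochondrial genome (mt- genes) were kept as a separate set, so that 102 of 20605 measured genes were members. By role, 36 of the nuclear genes belong to complex I, 4 to complex II, 8 to complex III, 17 to complex IV (Ndufa4 and Ndufa4l2 counted here) and 16 are counted under complex V, among them Atp5s, which the prefix rule takes in but which is not a subunit. The rule also takes in 8 Ndufaf genes, which encode assembly factors of complex I and not subunits. Of the 89 nuclear genes, 88 passed the filter on low counts, and Cox6a2 did not; all 13 mt- genes passed, and 13184 genes were tested in all.

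Cells came from primary mammary tumours of 4 C3(1)-Tag mice, a transgenic FVB line in which the C3(1) promoter drives a viral large T antigen in mammary epithelium. The mice were between 25 and 30 weeks old with tumours of 20 mm. The tumour cells were freshly isolated and grown in collagen I, a fibrillar stromal collagen, or in Matrigel, an extract of basement membrane, in both cases in serum-free medium with 2.5 nM FGF2. They were taken 12 hours after plating (day 0) and on days 3 and 5. Cells were released from collagen with 2 mg/ml collagenase and from Matrigel with 10 mM EDTA on ice, so the matrix and the way of release cannot be told apart. Each day was 1 pooled library, and the day and the library cannot be told apart either. Every pool also held 4T1 cells, an established mouse mammary carcinoma line grown on plastic in medium with serum, which served as a reference for the pool: 98, 196 and 19 cells on days 0, 3 and 5. The first time point of the cell annotation, D1, was taken as the day 0 pool, which is an inference.

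Counts of unique molecular identifiers (UMIs) were summed over the cells of each mouse, matrix and day with at least 20 cells. This gave 21 sums: 4 in each matrix on days 0 and 3, 3 in collagen (mice 1, 2 and 3) and 2 in Matrigel (mice 2 and 3) on day 5. The sums held between 38 and 1148 cells and between 1831436 and 46657709 UMIs, and 4 mice in all were the replicates. The median UMIs per cell rose with the day, from 4330 to 24921 over the sums of day 0 to 52656 to 60985 on day 5. Of the cells used, 699 of day 0 lay in clusters of few UMIs, 385 of them from mouse 4, and 57 cells labelled as mouse cells lay in the cluster of 4T1 cells. These 57 cells weighed more in UMIs than in number. On day 0 the collagen sum of mouse 4 had 2671141 UMIs with them and 1852349 without them. The Matrigel sum of mouse 4 had 7099292 and 6637011. The summed level of 8 epithelial markers was between 4140 and 8338 CPM (counts scaled to the same total in every sum) in the sums. Cells in clusters led by macrophage, fibroblast or T and NK cell markers were left out. In the sums used, 10 macrophage markers together reached 17.9 to 101 CPM in collagen sums of day 0. They reached 10.2 to 29.0 CPM in Matrigel sums of that day, and at most 19.9 CPM later. Most of the collagen level of day 0 was Cx3cr1, at a mean of 44.0 CPM against 1.74 CPM in Matrigel. The 8 fibroblast markers together reached at most 31.2 CPM and the 4 neutrophil markers between 4.5 and 743 CPM, the highest value being in Matrigel on day 3; their part in the results was not tested. Nothing in the labels separates cultures within a mouse, so p-values measure the spread between the 4 mice.

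Oxidative phosphorylation couples the transfer of electrons to the making of ATP across the inner mitochondrial membrane. Complex I takes electrons from NADH and complex II, which is also an enzyme of the tricarboxylic acid cycle, takes them from succinate. Complex III passes them to cytochrome c, complex IV hands them to oxygen, and complex V, the ATP synthase, uses the proton gradient that complexes I, III and IV build. Complexes I, III, IV and V are mosaics of nuclear and mitochondrial gene products, while complex II is encoded by nuclear genes alone. Mammary carcinoma cells use both this pathway and glycolysis.

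The mean share of all UMIs that came from the 89 nuclear genes was lowest on day 0 and highest on day 3 in both matrices. In collagen it was 2.11% ± 0.051 (SD, n = 4) on day 0, 2.92% ± 0.155 (n = 4) on day 3 and 2.55% ± 0.040 (n = 3) on day 5. In Matrigel it was 1.82% ± 0.087 (n = 4), 3.17% ± 0.226 (n = 4) and 2.98% and 3.02% in mice 2 and 3 on day 5. On day 3 these 2 mice were at 2.92% and 3.12%, so mouse 2 rose to day 5 and mouse 3 fell. Mouse 4, the highest in Matrigel on day 3 (3.47%), had no sum on day 5. No sum of day 0 reached any sum of a later day: the highest sum of day 0 was 2.16% and the lowest later one 2.51%. The order of the matrices turned over between the days. On day 0 every collagen sum (2.06% to 2.16%) lay above every Matrigel sum (1.75% to 1.93%), on day 3 the ranges overlapped, and on day 5 both Matrigel sums lay above the 3 collagen sums. The 4T1 cells of the same pools gave 2.50% (95% interval 2.49% to 2.51%), 2.59% (2.58% to 2.60%) and 2.64% (2.62% to 2.66%), exact binomial intervals that cover counting error only. The 4T1 share rose by less from pool to pool than the tumour share between days 0 and 3.

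**Figure D1:**
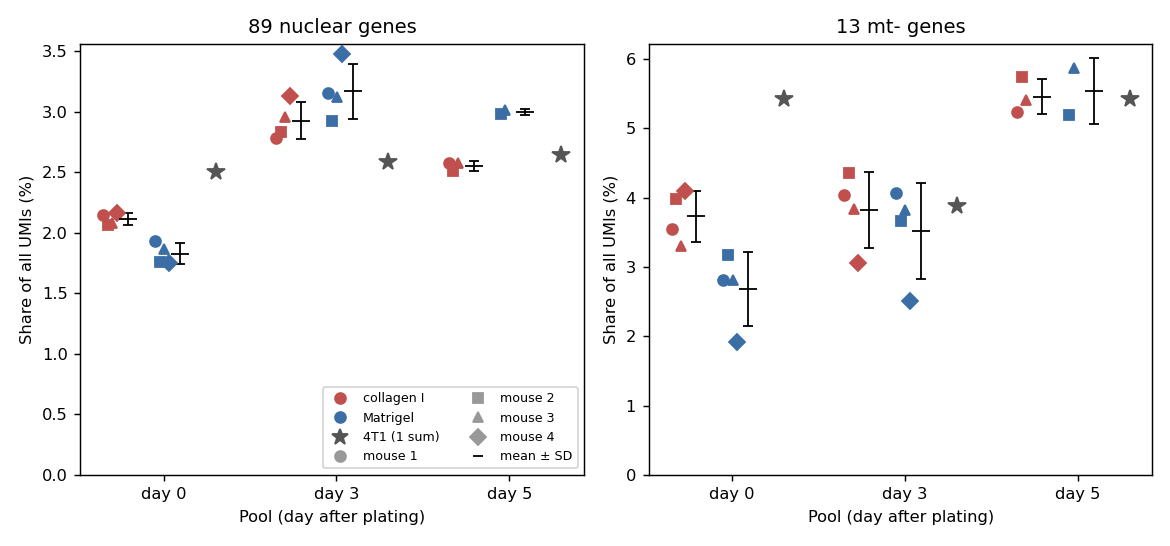
Share of all UMIs (percent) from the 89 nuclear genes (left) and the 13 mt- genes (right) in each sum, by pool. Coloured points are mice in collagen I or Matrigel, black marks are the mean ± SD over mice, and stars are the 4T1 cells of the same pool, with 1 sum each. The nuclear share is lowest on day 0 in both matrices and changes little in 4T1, while the mt- share is highest on day 5 and dips on day 3 in 4T1.

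Within the nuclear set, complexes I and IV contributed most to the change. The complex I genes made up 0.603% ± 0.021 of UMIs in collagen on day 0 and 0.885% ± 0.046 on day 3, and 0.489% ± 0.037 and 0.951% ± 0.049 in Matrigel (SD, n = 4 each). The complex IV genes went from 0.614% ± 0.033 to 0.904% ± 0.064 in collagen and from 0.559% ± 0.024 to 0.997% ± 0.071 in Matrigel. The complex V genes went from 0.607% ± 0.014 to 0.775% ± 0.029 and from 0.524% ± 0.027 to 0.843% ± 0.075, and the complex III genes from 0.217% ± 0.011 to 0.290% ± 0.018 and from 0.187% ± 0.006 to 0.300% ± 0.027. Complex II moved least: 0.041% ± 0.004 and 0.042% ± 0.006 in collagen, 0.036% ± 0.003 and 0.043% ± 0.010 in Matrigel. The 8 assembly factors stayed between 0.028% and 0.036% in the group means. Single cells showed the same order, with a median nuclear share per cell of 1.53% to 2.08% in the mice on day 0 and 2.79% to 3.48% on day 3. The cytosolic ribosomal protein genes, another abundant set, made up 17.5% to 18.8% (day 0) and 17.1% to 20.2% (day 3) in collagen, and 13.1% to 17.2% and 17.9% to 22.7% in Matrigel.

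Gene by gene, the change from day 0 to day 3 reached most nuclear members in both matrices. In collagen, 56 of 88 tested nuclear genes rose and 1 fell at an adjusted p under 0.05 (edgeR's quasi-likelihood test, Benjamini-Hochberg adjustment over all tested genes), where 19.6% of all 13184 genes changed (9.33% higher, 10.2% lower). In Matrigel, 73 rose and 1 fell, where 39.1% of all genes changed (19.4% higher, 19.7% lower). All 56 genes called higher in collagen were also called in Matrigel, which is 76.7% of the 73 called there. The median log2 change of the nuclear genes was 0.55 in collagen and 0.92 in Matrigel, against -0.02 and -0.01 over all tested genes. The change was more positive in Matrigel for 85 of 88 genes, but the test of that difference called 1 of them, Ndufaf3. Groups of mice did not overlap for 53 higher members in collagen and 68 in Matrigel, where 11.0% and 14.6% of all genes were higher without overlap. With the mouse as a block, which removes differences shared by the sums of an animal, 68 rose and 2 fell in collagen and 80 rose and 2 fell in Matrigel, where 37.7% (18.2% higher, 19.5% lower) and 54.8% (26.7% higher, 28.1% lower) of all genes were called. Without mouse 2 the collagen comparison called 35 nuclear genes in place of 57.

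**Figure D2:**
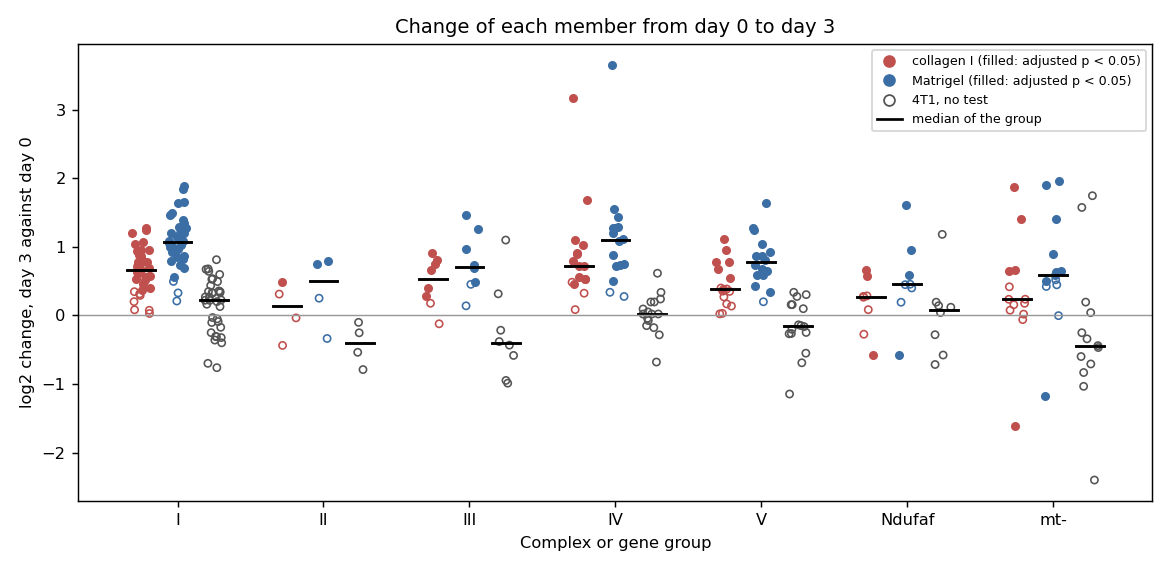
Log2 change from day 0 to day 3 for each tested member, by complex, in collagen I, Matrigel and the 4T1 cells. Filled points passed an adjusted p of 0.05, open points did not (or, for 4T1, were not tested), and bars are group medians. Complex I medians are 0.66 and 1.07 in the tumour cells and 0.22 in 4T1.

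In complex I, all 36 genes had a positive change in both matrices, 27 rose in collagen and 33 in Matrigel, and the medians were 0.66 and 1.07. Ndufc1, Ndufv3 and Ndufa13 were among the strongest calls. Ndufc1, an accessory subunit of the membrane arm, was at 153 to 170.5 CPM in collagen and 117 to 161 CPM in Matrigel on day 0 and at 345 to 415 and 356 to 509.5 CPM on day 3, with log2 changes of 1.20 ± 0.12 (SE) and 1.64 ± 0.12 (adjusted p 1.09e-06 and 9.03e-09). Ndufa13, a subunit also known as Grim19, was at 184, 222, 243 and 272 CPM in the 4 collagen sums of day 0 and at 500.2, 538, 558 and 640.2 CPM on day 3. In Matrigel it was at 130.5, 144, 152 and 174 CPM and then at 438, 515, 562 and 714 CPM. No day 0 value reached a day 3 value in either matrix, and the log2 changes were 1.28 ± 0.15 and 1.89 ± 0.15 (adjusted p 1.09e-05 and 4.24e-08). Ndufv3 rose by 1.04 ± 0.11 and 1.65 ± 0.11. Ndufs1, the largest core subunit, and Ndufa10 did not pass in either matrix (log2 changes 0.08 and 0.33, and 0.08 and 0.21), and neither did Ndufb9 (0.03 and 0.50, adjusted p 0.941 and 0.0526).

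Complex II did not move as a block. Sdhb, the iron-sulfur subunit, rose in both matrices, by 0.49 ± 0.11 (adjusted p 0.00414) and 0.80 ± 0.11 (2.37e-05), from 120.4 to 157 CPM over all sums of day 0 to 173 to 263 CPM on day 3. Sdha, the flavoprotein, rose in Matrigel by 0.76 ± 0.15 (adjusted p 0.000626) and had a change of 0.31 ± 0.15 in collagen (0.156). The membrane anchors Sdhc and Sdhd did not pass: Sdhc had changes of -0.04 ± 0.14 and 0.25 ± 0.14 and Sdhd of -0.44 ± 0.22 and -0.34 ± 0.22. With the mouse as a block, Sdhd was called lower in both matrices (adjusted p 0.00671 and 0.0145), Sdhc was called higher in Matrigel (0.033) and Sdha higher in collagen (0.0182). In 4T1 the changes of Sdhc and Sdhd were -0.54 and -0.79, below those of the tumour cells.

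In complex III, 6 of 8 genes rose in each matrix. Uqcr11, Uqcr10, Uqcrh and Uqcrq, all small subunits, led the list. Uqcr10 was at 182 to 215 CPM in collagen and 132 to 199.7 CPM in Matrigel on day 0 and at 305 to 413 and 326 to 468 CPM on day 3, a rise of 0.92 ± 0.15 and 1.26 ± 0.15 (adjusted p 0.000371 and 4.65e-06). Uqcr11 rose by 0.81 ± 0.19 and 1.47 ± 0.20, Uqcrh by 0.75 ± 0.12 and 0.97 ± 0.12, and Uqcrq by 0.67 ± 0.14 and 0.73 ± 0.14, the last with 1.10 in 4T1. The 2 core proteins did not pass: Uqcrc1 had changes of 0.18 ± 0.20 and 0.45 ± 0.20 and Uqcrc2 of -0.12 ± 0.14 and 0.14 ± 0.14.

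In complex IV, 13 of 16 tested genes rose in collagen and 14 in Matrigel, and all 16 changes were positive. Cox7b was at 245 to 326 CPM in collagen on day 0 and at 528 to 653 CPM on day 3, without overlap, and rose by 1.10 ± 0.13 there and by 1.43 ± 0.13 in Matrigel (adjusted p 9.56e-06 and 1.4e-07). Cox6a1 rose by 0.72 ± 0.09 and 1.08 ± 0.09, Cox7c by 0.79 ± 0.11 and 1.29 ± 0.11, and Cox4i1, a subunit known for regulation by ATP, by 0.54 ± 0.12 and 0.75 ± 0.12. Cox7a2 rose by 1.03 ± 0.13 and 1.21 ± 0.13, Cox6b1 by 0.91 ± 0.16 and 1.12 ± 0.16, Cox8a by 0.53 ± 0.18 and 1.27 ± 0.18, and Cox5b by 0.72 ± 0.13 and 0.88 ± 0.13. Ndufa4, now assigned to complex IV, rose by 0.56 ± 0.16 and 0.72 ± 0.16, and Cox7a2l, which joins complexes III and IV in supercomplexes, by 0.47 ± 0.14 and 0.50 ± 0.14, with 0.62 in 4T1. Cox5a was called in Matrigel alone (0.74 ± 0.22, adjusted p 0.012; collagen 0.49 ± 0.22, 0.131), and in the block fit in both.

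Complex V showed the largest gap between the matrices in the number of calls, 7 of 16 in collagen against 15 of 16 in Matrigel. All 16 changes were positive in both, and Atp5s is counted among the 16 and among the 15 called in Matrigel. Over all tested genes, too, more were called higher in Matrigel (19.4%) than in collagen (9.33%). The test of the difference between the matrices in this change called no complex V gene, so the gap is 1 of calls alone. With the mouse as a block 11 and 15 were called, Atp5s again in Matrigel alone. Atp5j2, a subunit of the membrane part, was at 394 to 512 and 351 to 402 CPM on day 0 and at 856 to 1079 and 990.2 to 1441 CPM on day 3, and rose by 1.12 ± 0.12 and 1.64 ± 0.12 (adjusted p 5.61e-06 and 2.05e-08). Atp5e rose by 0.79 ± 0.14 and 1.25 ± 0.14 and Atp5l by 0.96 ± 0.17 and 1.27 ± 0.18. Atp5b, the catalytic beta subunit, did not pass in either matrix (0.02 ± 0.15 and 0.20 ± 0.15, adjusted p 0.936 and 0.289). The 3 genes for the same c-ring protein, Atp5g1, Atp5g2 and Atp5g3, rose in Matrigel by 0.87 ± 0.17, 0.74 ± 0.18 and 0.59 ± 0.17.

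The assembly factors were mixed. Of the 8 Ndufaf genes, 2 rose and 1 fell in collagen, where 19.6% of all genes were called, and 3 rose and 1 fell in Matrigel, where 39.1% were; a count of 4 of 8 is near that share. Ndufaf3 rose by 0.67 ± 0.11 and 1.61 ± 0.11, and Ndufaf8 by 0.58 ± 0.19 and 0.95 ± 0.19. Ndufaf4, which helps to assemble the ubiquinone-binding part of complex I, was the only nuclear member that fell at an adjusted p under 0.05: from 78.6, 64.2, 84.3 and 70.0 CPM in mice 1 to 4 on day 0 to 58.3, 45.6, 45.3 and 49.9 CPM on day 3 in collagen, and from 114, 92.1, 114 and 81.5 CPM to 72.3, 48.8, 77.7 and 71.2 CPM in Matrigel. Its log2 changes were -0.58 ± 0.16 (adjusted p 0.0137) and -0.57 ± 0.16 (0.0074), and the groups did not overlap in either matrix. In the 4T1 cells Ndufaf4 went from 35.5 to 86.9 CPM, the other way.

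The 4T1 cells, with 1 sum per pool and grown on plastic with serum, are given beside these changes. Their log2 change from day 0 to day 3, on the log2(CPM + 5) scale, had a median of 0.02 over the 88 nuclear genes and of -0.05 over all tested genes. By complex the 4T1 medians were 0.22 for I, -0.39 for II, -0.41 for III, 0.02 for IV and -0.15 for V. The change was more positive in the tumour cells than in 4T1 for 81 of 88 nuclear genes in collagen and for 85 in Matrigel, where the same held for 7168 and 7137 of 13184 tested genes. These comparisons share the 4T1 sums and have no replicate check on the 4T1 side. They also set tumour changes on TMM-scaled totals against 4T1 changes on unscaled totals. In the 4T1 cells the ribosomal protein genes went from 28.2% of UMIs on day 0 to 33.8% on day 3. The effect of either on the comparison was not tested. Ndufa13, for example, went from 323 to 408 CPM in 4T1, Ndufc1 from 221 to 268 CPM and Cox7c from 631 to 641 CPM, all smaller changes than in the tumour cells. Ndufv3 went from 109 to 62.4 CPM in 4T1, against a rise in both matrices. From day 3 to day 5 the 4T1 median over the nuclear genes was -0.01.

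Genes that work beside the respiratory chain were read from lists given as background. Over all tested genes, 19.6% were called from day 0 to day 3 in collagen (9.33% higher, 10.2% lower). In Matrigel 39.1% were called (19.4% higher, 19.7% lower). From day 0 to day 3 the mitochondrial ribosome list had 25 of 78 genes higher and 1 lower in collagen, and 42 higher and 2 lower in Matrigel (medians 0.35 and 0.49). Of 14 tricarboxylic acid cycle genes, 2 rose and 1 fell in collagen and 8 rose and 2 fell in Matrigel (0.20 and 0.44), led in Matrigel by Idh2, an isocitrate dehydrogenase (1.44 ± 0.18). Of 20 complex IV assembly genes, 7 rose and 1 fell, and 12 rose and 2 fell (0.39 and 0.64), with Cox17, a copper chaperone, at 0.93 ± 0.14 and 1.14 ± 0.14. Atpif1, the inhibitor of the ATP synthase, rose by 1.17 ± 0.13 and 1.41 ± 0.13. Of the other 4 genes in its list, kept beside complex V, none was called in Matrigel. Usmg5 alone was called in collagen, where it fell (-0.47 ± 0.12, adjusted p 0.00774 in edgeR's test). Usmg5 lies outside the prefix rule, so it is not among the 16 genes counted under complex V. From day 3 to day 5 it rose by 0.72 ± 0.12 in collagen and 0.77 ± 0.14 in Matrigel. Of 7 complex I assembly genes outside the prefix rule, 1 rose in collagen and 2 rose and 1 fell in Matrigel, with Acad9 at 0.49 ± 0.13 and 1.54 ± 0.14. Cytosolic ribosomal protein genes had 13 of 83 higher and 7 lower in collagen and 62 higher and 2 lower in Matrigel (0.22 and 0.57). The collagen counts of the tricarboxylic acid cycle and ribosomal protein lists were near the share of all genes. The same held for the complex I assembly list in both matrices.

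Regulators of mitochondrial biogenesis were mixed, beside 19.6% of all genes called in collagen and 39.1% in Matrigel. Of 12 genes, 1 rose and 3 fell in collagen, and 2 rose and 5 fell in Matrigel (medians -0.17 and -0.22). Esrra, a nuclear receptor that binds promoters of respiratory genes, rose by 1.11 ± 0.21 and 1.79 ± 0.21 (adjusted p 0.000861 and 3.64e-06). Nrf1, nuclear respiratory factor 1, fell in Matrigel by 0.57 on the log2 scale (SE 0.13, adjusted p 0.00167), and Tfb2m, a mitochondrial transcription factor, had changes of -0.63 ± 0.15 and -0.92 ± 0.15, both called. In the list for mitochondrial DNA and RNA maintenance 1 of 12 rose and 3 fell in each matrix (medians -0.34 and -0.23). In Matrigel that count did not exceed the share of all genes. Slirp, which stabilises mitochondrial mRNA, rose by 0.95 ± 0.11 and 1.38 ± 0.11, and Trmt10c, a subunit of mitochondrial RNase P, had changes of -1.06 ± 0.16 and -1.45 ± 0.16. Of 10 early response genes of tissue dissociation, 2 fell in collagen, near the share of all genes, and 5 in Matrigel, and none rose (medians -0.24 and -0.91). Their summed level overlapped between the days, at 2692 to 3862 CPM and then 2167 to 4763 CPM in collagen and at 3439 to 5272 CPM and then 1514 to 3543 CPM in Matrigel, and their part in the result was not tested.

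Promoter letters of the nuclear members are shown because many members moved together. RefSeq promoter windows (GRCm38.p6) matched 71 of the 89 nuclear genes by symbol, and the 250 bases before the start site were read on both strands. A core of the site of nuclear respiratory factor 1, GCATGCG, was in 10 of 71 members (14.1%), in 3.43% of all 27025 symbols and in 6.15% of the 10039 symbols tested here. The core of ETS factor sites, CCGGAAG, was in 14 of 71 (19.7%), against 7.83% and 15.6%. No position is shared by the letters of both cores in the 3 members that hold both, Atp5j, Atp5l and Cox6a1. Windows of 5 of the 10 members are printed 5′ to 3′ on the gene's strand with every core in capitals: 1 member each of complexes I, II, IV and V that rose in both matrices, and Ndufaf4, which fell. Matches of the first core on both strands that overlap count as 1.
Ndufa11 (chr17:56717512-56717761, plus strand): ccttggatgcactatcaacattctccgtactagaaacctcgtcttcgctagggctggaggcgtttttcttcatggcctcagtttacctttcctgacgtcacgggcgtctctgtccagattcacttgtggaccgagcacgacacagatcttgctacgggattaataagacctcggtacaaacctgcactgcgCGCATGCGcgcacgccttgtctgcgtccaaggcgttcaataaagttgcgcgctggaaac
Sdhb (chr4:140961021-140961270, plus strand): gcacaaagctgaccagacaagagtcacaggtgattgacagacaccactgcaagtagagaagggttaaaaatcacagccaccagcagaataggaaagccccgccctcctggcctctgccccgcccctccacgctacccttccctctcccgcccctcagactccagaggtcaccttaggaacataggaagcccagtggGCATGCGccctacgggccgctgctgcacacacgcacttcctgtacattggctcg
Cox6a1 (chr5:115348959-115349208, minus strand): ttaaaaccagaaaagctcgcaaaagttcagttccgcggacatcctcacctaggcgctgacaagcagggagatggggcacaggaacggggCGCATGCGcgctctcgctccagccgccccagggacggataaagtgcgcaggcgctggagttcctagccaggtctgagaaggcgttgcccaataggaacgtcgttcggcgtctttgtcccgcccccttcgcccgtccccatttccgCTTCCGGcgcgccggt
Atp5l (chr9:44920743-44920992, minus strand): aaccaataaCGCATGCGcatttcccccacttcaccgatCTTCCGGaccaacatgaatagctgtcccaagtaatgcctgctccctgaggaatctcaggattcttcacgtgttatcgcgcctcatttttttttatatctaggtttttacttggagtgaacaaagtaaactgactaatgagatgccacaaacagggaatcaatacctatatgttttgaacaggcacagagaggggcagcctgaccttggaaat
Ndufaf4 (chr4:24897833-24898082, plus strand): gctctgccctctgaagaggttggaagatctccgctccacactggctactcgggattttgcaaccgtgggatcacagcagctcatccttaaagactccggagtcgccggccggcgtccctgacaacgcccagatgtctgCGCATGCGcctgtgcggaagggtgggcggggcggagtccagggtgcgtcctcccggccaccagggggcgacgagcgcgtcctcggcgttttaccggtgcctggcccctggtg
The genes behind the 10 windows did not change alike from day 0 to day 3: 8 rose in both matrices, Atp5g2 rose in Matrigel alone, and Ndufaf4 fell in both. Of all 88 tested nuclear genes, 56 rose in both matrices, so such a rise was common among the members at large. Ndufa11 rose by 0.96 ± 0.13 in collagen and by 1.498 ± 0.132 in Matrigel. A match is a description of the letters and shows no binding.

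On day 0 most members had a small positive difference for collagen, 79 of 88 with a median of 0.22, but the share that passed the test was near that of all genes. Collagen sums were higher for 6 of 88 nuclear genes and lower for none, where 7.04% of all genes were called (4.16% higher, 2.88% lower). Groups did not overlap for 15 nuclear genes higher in collagen and for none lower, where 7.25% of all genes were higher and 6.73% lower without overlap. The 6 called genes were 5 of complex I and the assembly factor Ndufaf3. All 36 complex I differences were positive (median 0.27), as were 8 of 8 in complex III (0.21), 14 of 16 in complex IV (0.19) and 13 of 16 in complex V (0.20), against a median of 0.01 over all tested genes. Ndufa13 differed by 0.62 ± 0.15 (adjusted p 0.0183), Ndufv3 by 0.48 ± 0.11 (0.0151) and Ndufb11 by 0.385 ± 0.111 (0.0431). Ndufs7, named after its value was seen, differed by 0.40 ± 0.12 (0.0495). With the mouse as a block, 35 nuclear genes were higher and 1 lower, 19 of them in complex I, where 24.3% of all genes were called (12.5% higher, 11.8% lower). Without mouse 1, mouse 2 or mouse 3, the count in the fit without a block was 2, 1 and 1 (4 mice: 6). The epithelial markers were lower in collagen on day 0 (median of their sum 5862 against 7530 CPM), though Krt5 and Krt7 were higher there. The sum of the macrophage markers was higher (70.6 against 19.1 CPM), and most of it in collagen was Cx3cr1 (means 44.0 against 1.74 CPM). Cx3cr1 was a leading gene of an unnamed cluster of few UMIs, not of the macrophage cluster. Cd68, Csf1r, Lyz2, Adgre1 and C1qa were also higher in collagen, C1qb was equal, and Ptprc, Tyrobp and Fcer1g were lower. The part of these markers in the difference was not tested.

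Ndufaf3 had the largest matrix difference among the called members on day 0 and it turned over by day 5. It was at 19.1, 19.0, 15.5 and 18.3 CPM in mice 1 to 4 in collagen and at 9.38, 9.10, 9.54 and 8.96 CPM in Matrigel on day 0, a difference of 0.96 ± 0.12 (adjusted p 0.000166). On day 3 the matrices overlapped, at 25.9 to 31.9 and 25.7 to 30.7 CPM. On day 5 collagen was at 24.0, 26.8 and 23.7 CPM and Matrigel at 38.1 and 33.7 CPM, the 2 Matrigel values being the highest of all sums. The change of the matrix difference was -0.94 ± 0.16 from day 0 to day 3 (adjusted p 0.0482, where 0.0303% of all genes were called) and -1.49 ± 0.18 from day 0 to day 5 (0.00149, where 1.19% were called, 0.478% higher and 0.713% lower). Leaving out any of the 4 mice took the adjusted p of the day 3 change above 0.05, and leaving out mouse 1, 2 or 3 did so for the day 5 change. In 4T1 Ndufaf3 was at 26.6, 16.2 and 26.3 CPM in the 3 pools.

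On days 3 and 5 most members had a negative difference, and none passed in the fit without a block. On day 3, 17 of 88 nuclear genes were positive for collagen (median -0.11) and none was called, where 0.205% of all genes were called (0.167% higher, 0.0379% lower); at an unadjusted p under 0.05 there were 8 (9.88% of all genes) and DESeq2 called 1 (1.37% of all genes), both near the share of all genes, and the block fit called 6, all 6 lower in collagen (4.38% of all genes in that fit, 2.72% higher and 1.66% lower). On day 5, 9 of 88 were positive (median -0.23) and none was called, where 0.493% of all genes were (0.356% higher, 0.137% lower); at an unadjusted p under 0.05 there were 17 (12.0% of all genes), DESeq2 called 5 (2.0% of all genes) and the block fit 15, all 15 lower in collagen (6.27% of all genes in that fit, 3.61% higher and 2.66% lower). Groups did not overlap for 48 nuclear genes lower in collagen on day 5 and for none higher, with 3 mice against 2, where 17.0% of all genes were lower and 18.6% higher without overlap. Cox7c, a small complex IV subunit, was at 677, 682 and 691 CPM in collagen and at 937 and 1030.2 CPM in Matrigel on day 5. Its matrix difference went from 0.21 ± 0.11 on day 0 to -0.53 ± 0.14 on day 5, and the change of -0.74 ± 0.17 was called (adjusted p 0.0436), but not without mouse 1, 2, 3 or 4. With the mouse as a block, 25 nuclear genes had a lower matrix difference on day 3 than on day 0 and 45 on day 5 than on day 0, with none higher in either (5.34% of all genes in that fit, 2.21% higher and 3.13% lower, and 13.7%, 6.38% higher and 7.33% lower). The ribosomal protein genes turned in the same way, with 78 of 83 positive on day 0 (median 0.21), 2 on day 3 (-0.15) and 4 on day 5 (-0.22). The comparisons of one day with another and of the matrices share sums and are not independent of each other.

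**Figure D3:**
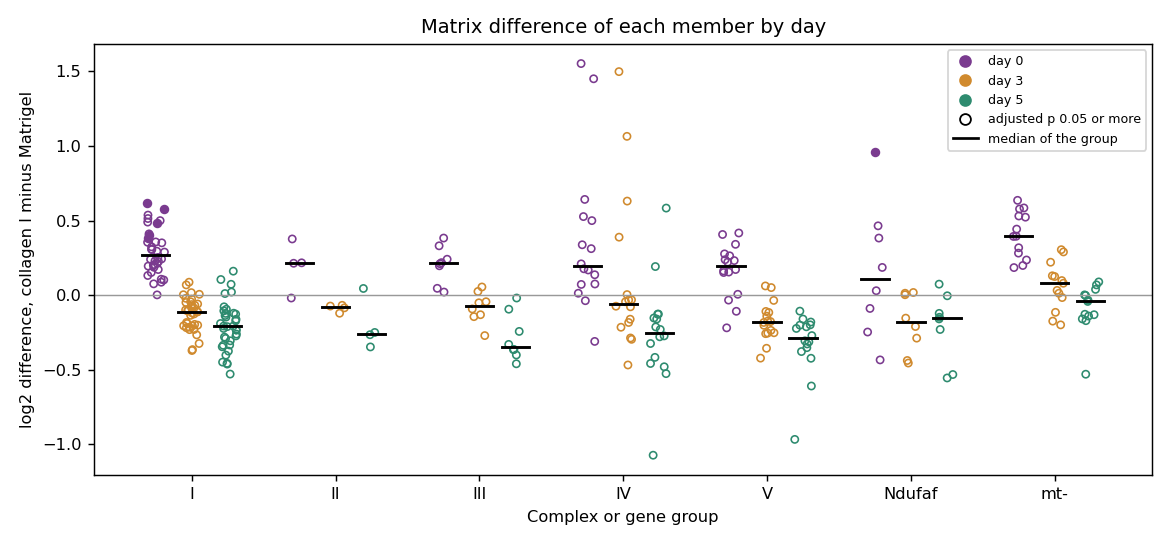
Log2 difference between collagen I and Matrigel for each tested member, by complex and day. Positive values are higher in collagen, filled points passed an adjusted p of 0.05, and bars are group medians. All complex I values lie at or above 0 on day 0 and most lie below 0 on days 3 and 5.

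From day 3 to day 5 the nuclear members eased back in collagen, but few passed. In collagen 1 nuclear gene rose and 2 fell, where 1.13% of all genes were called (0.675% higher, 0.455% lower), with a median of -0.24 over 88 genes. With the mouse as a block 4 rose and 34 fell, 18 of them in complex I and 9 in complex IV (10.5% of all genes in that fit, 4.64% higher and 5.88% lower). In Matrigel 2 rose and 1 fell (median -0.08), where 2.5% of all genes were called (1.46% higher, 1.05% lower), and 4 rose and 13 fell with the block (12.7%, 5.86% higher and 6.87% lower). Ndufb7 fell in both matrices, with changes of -0.63 ± 0.12 (adjusted p 0.0129) and -0.62 ± 0.14 (0.0263), from 381 to 432 CPM to 244 to 278 CPM in collagen and from 418 to 566 CPM to 280.1 and 329 CPM in Matrigel. Atp5k rose in both, by 0.49 ± 0.12 and 0.55 ± 0.13, from 275 to 296 CPM to 399 to 412 CPM in collagen. In 4T1 Atp5k swung more widely, at 194, 85.0 and 315 CPM on the 3 days, so its rise from day 3 to day 5 was larger there than in either matrix. Cox7b fell in collagen (-0.62 ± 0.14, adjusted p 0.031), and Ndufa3 rose in Matrigel (0.95 ± 0.22, 0.0306), with 46.8 to 82.5 CPM in 4T1. The count of nuclear calls was 0 in collagen without mouse 1, 2 or 3 and 9 without mouse 4, and it was 1, 0, 0 and 6 in Matrigel without mouse 1, 2, 3 and 4.

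The 13 mitochondrial genes behaved differently from the nuclear ones. Their share of UMIs in collagen was 3.73% ± 0.369 (SD, n = 4) on day 0, 3.82% ± 0.552 (n = 4) on day 3 and 5.46% ± 0.257 (n = 3) on day 5, and in Matrigel 2.68% ± 0.537, 3.52% ± 0.694 and 5.20% and 5.87%. The sums of day 5 (5.20% to 5.87%) all lay above the sums of day 0 and day 3 (1.92% to 4.36%), while days 0 and 3 overlapped. In 4T1 the share was 5.42%, 3.88% and 5.43%, so the rise from day 3 to day 5 was present in the reference cells of the pools as well. The highest share of any deposited cell was 9.99%, and with only cells of at most 5% the day 5 collagen share was 4.00% ± 0.098. Mouse 4 had the lowest mt- share in Matrigel on day 0 (1.92%, others 2.81% to 3.17%) and in both matrices on day 3 (3.06% and 2.51%, others 3.66% to 4.36%), but the highest in collagen on day 0 (4.10%). On day 0 all 13 mt- genes had a positive difference for collagen (median 0.40) and none passed in edgeR; at an unadjusted p under 0.05 there were 7 (23.8% of all genes), DESeq2 called 1 (10.7%) and the block fit 8 (24.3%).

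mt-Nd3, mt-Nd4l and mt-Atp8, which are short, swung with the pool in the tumour cells and in 4T1 alike. mt-Nd3, a complex I subunit, was at 379 to 498 CPM in collagen on day 0, at 115 to 177 CPM on day 3 and at 581 to 643 CPM on day 5, and at 251 to 444, 130 to 191 and 676 to 684 CPM in Matrigel. In 4T1 it was at 649, 119 and 607 CPM. Its log2 changes from day 0 to day 3 were -1.61 ± 0.17 and -1.18 ± 0.17 (adjusted p 3.92e-06 and 3.12e-05), against -2.40 in 4T1, and from day 3 to day 5 they were 2.04 ± 0.18 and 2.01 ± 0.20, against 2.30 in 4T1. mt-Nd4l, another complex I subunit, went the other way, from 275 to 314 CPM to 916 to 1150 CPM and then 418 to 501 CPM in collagen. Its changes were 1.87 ± 0.15 and 1.96 ± 0.15, then -1.24 ± 0.16 and -0.98 ± 0.18, against 1.57 and -0.75 in 4T1. mt-Atp8, a complex V subunit, rose from day 0 to day 3 by 1.41 ± 0.21 and 1.90 ± 0.21, against 1.75 in 4T1, from 56.0 to 83.7 CPM to 128 to 203 CPM in collagen. From day 0 to day 3 these 3 genes thus changed in the same direction in 4T1 cells, which were grown in neither matrix.

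**Figure D4:**
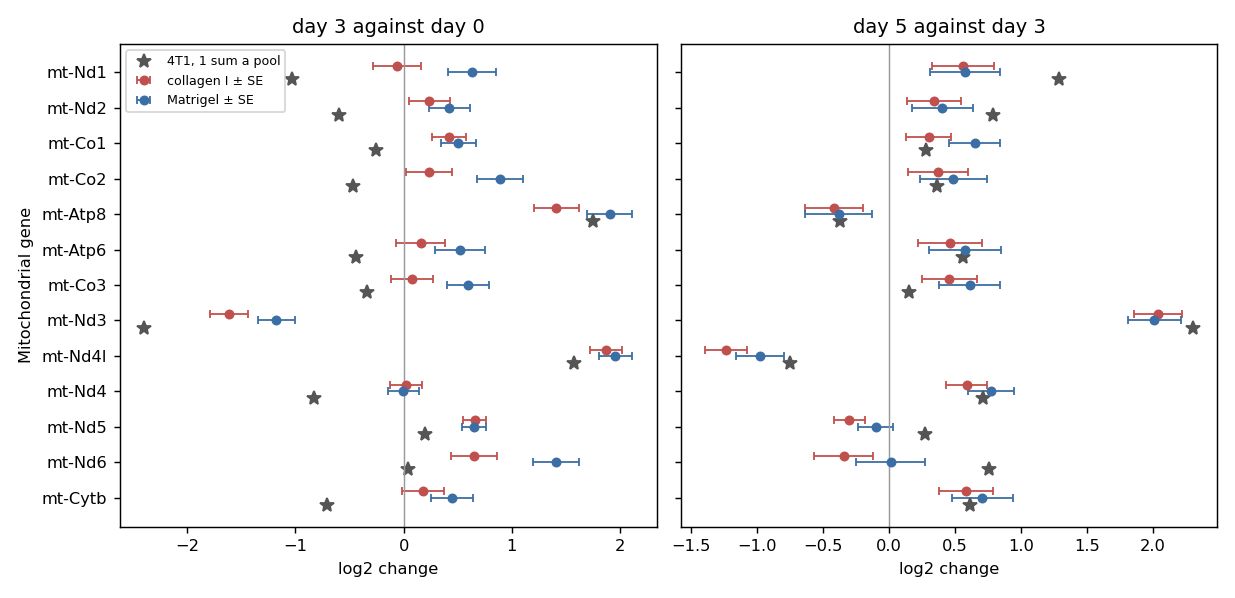
Log2 change of each mt- gene, in the order of the mitochondrial genome, from day 0 to day 3 (left) and from day 3 to day 5 (right). Circles are collagen I and Matrigel with their SE, and stars are the 4T1 cells, with 1 sum a pool and no error. mt-Nd3, mt-Nd4l and mt-Atp8 move in the same direction in collagen I, Matrigel and 4T1 from day 0 to day 3, whereas mt-Nd1 and mt-Nd4 lie lower in 4T1 from day 0 to day 3.

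Where these genes lie bears on how far their counts can be told apart. In the GENCODE vM21 annotation of GRCm38, mt-Atp8 (chrM:7766-7969) and mt-Atp6 (chrM:7927-8607) lie on the same strand and share 43 bases, and mt-Nd4l (chrM:9877-10173) and mt-Nd4 (chrM:10167-11544) share 7. The shared stretches are printed with the start codon of the downstream gene in capitals.
mt-Atp8 and mt-Atp6: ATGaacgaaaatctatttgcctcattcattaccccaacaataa
mt-Nd4l and mt-Nd4: ATGctaa
In both pairs the downstream gene starts inside the upstream one, and reads that lie in the shared bases cannot be assigned to either gene. The larger partners did not follow the swings: mt-Atp6 had changes of 0.16 ± 0.23 and 0.52 ± 0.23 from day 0 to day 3, and mt-Nd4 of 0.02 ± 0.15 and 0.00 ± 0.15, none of them called. mt-Nd3 (chrM:9459-9806) ends 70 bases before mt-Nd4l and overlaps no protein-coding neighbour. mt-Nd6, the only one of the 13 on the other strand, overlaps mt-Nd5 by 14 bases.

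Of the other mt- genes, mt-Nd5 rose from day 0 to day 3 in both matrices, by 0.66 ± 0.11 (adjusted p 0.000356) and 0.65 ± 0.11 (0.000137), with 0.20 in 4T1, and mt-Nd6 by 0.65 ± 0.21 (0.0381) and 1.41 ± 0.22 (5.38e-05), with 0.04 in 4T1. As a mean over cells in place of a sum, the mt-Nd5 change in collagen was -0.085 and did not pass. In Matrigel mt-Co1 (0.51 ± 0.16), mt-Co2 (0.89 ± 0.21), mt-Co3 (0.60 ± 0.19) and mt-Nd1 (0.63 ± 0.22) rose too, and none of these passed in collagen. In all, 4 of 13 rose and 1 fell in collagen, where 19.6% of all genes were called, and 8 rose and 1 fell in Matrigel, where 39.1% were. The 4T1 median over the 13 genes was -0.44, and the change was more positive than in 4T1 for 12 of 13 genes in collagen and 13 in Matrigel. From day 3 to day 5 the medians were 0.37 in collagen, 0.57 in Matrigel and 0.56 in 4T1, and the calls were mt-Nd3 and mt-Nd4l in both matrices and mt-Nd4 in Matrigel (0.77 ± 0.18, adjusted p 0.0256). The count of these calls ran from 1 to 5 in collagen and from 1 to 8 in Matrigel when a mouse was left out, in both cases highest without mouse 4 and, in Matrigel, 1 without mouse 1, 2 or 3; in collagen it was 1 without mouse 2. Without mouse 4 the mt- calls from day 0 to day 3 were 9 in collagen and 12 in Matrigel. The share of all genes called was not computed for fits with a mouse left out. Shifts of such counts, here and above, therefore cannot be ascribed to the members.

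Tissue-specific isoforms were low, with 1 exception. Cox6b2, the form of Cox6b known from testis, was at 9.51, 1.85, 4.08 and 1.03 CPM in mice 1 to 4 in collagen on day 0 and at 84.7, 23.4, 23.1 and 34.8 CPM on day 3. In Matrigel it was at 2.73, 1.66, 0.58 and 1.26 CPM and then at 20.4, 32.0, 13.1 and 14.2 CPM. Every day 3 value lay above every day 0 value, and mouse 1 in collagen was the highest on each day. The log2 changes were 3.17 ± 0.60 (adjusted p 0.00101) and 3.65 ± 0.64 (0.000212), the largest of any member. A UMI of Cox6b2 was found in 5.32% (3.98 to 6.96%) of collagen and 2.12% (1.49 to 2.92%) of Matrigel cells on day 0 and in 26.0% (24.3 to 27.8%) and 21.4% (18.4 to 24.7%) on day 3, at median depths of 15888, 16131, 36612 and 41030 UMIs per cell. As a background, 3.51% (1.77 to 6.20%) of 4T1 cells had one, at a median depth of 73192 UMIs, and 2.64% (0.98 to 5.66%) of the macrophage-like cells, at 13977. Of the fibroblast-like cells left out, 19.8% (11.7 to 30.1%) had one. The intervals are over pooled cells and leave out the spread between mice. These shares are at unequal depths and are not compared. Per UMI, on the unscaled total, 4T1 had 0.0, 0.733 and 0.375 CPM in the 3 pools, from 11 UMIs in all. Cox6b2 was among the 10 leading genes of 1 unnamed cluster, together with Mdm2 and Ccng1, targets of p53; that cluster held 4.68% of the collagen cells of day 3 and 26.9% of their Cox6b2 UMIs. Without that cluster, a setting chosen after seeing the data, the pooled collagen cells of day 3 had 25.5 CPM and those of day 0 had 5.32 CPM, on the unscaled total.

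Cox7a1, the heart and muscle form, rose by 1.68 ± 0.44 (adjusted p 0.01) and 1.55 ± 0.45 (0.0106), but at low levels, 0.55 to 1.63 CPM on day 0 and 1.32 to 4.62 CPM on day 3. Cox4i2, a form known from lung, was at 0.0 to 12.4 CPM on day 0 and did not pass in any comparison; mouse 2 had the highest value in both matrices on days 0 and 3. Ndufa4l2, a hypoxia-induced relative of Ndufa4, was at 0 to 18.4 CPM with no call. A UMI was found in 50.6% (39.3 to 61.9%) of the fibroblast-like cells that had been left out, and in 0.59 to 6.86% of tumour cells by group. These cells differ in depth, and the interval is over pooled cells without the spread between mice. Cox6a2, the muscle form that failed the filter, had at most 1.58 CPM in any sum and 17.7 CPM in the 4T1 cells of day 3, and 1.11 CPM in those of day 0.

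Mice differed from each other in a way that followed the chromosome of the gene. For each tested gene the deviation of a mouse from the mean of its group, on the log2(CPM + 5) scale, was averaged over its sums. All 6 members on chromosome 9 were above the group mean in mouse 4, with a median of 0.38: Cox5a by 0.48, Sdhd by 0.40, Uqcrc1 by 0.40, Atp5l by 0.36, Cox7a2 by 0.23 and Ndufaf3 by 0.05. The first 5 were above in 4 of 4 sums of this mouse. Cox5a (chr9:57521274-57532426) was at 1057 CPM in mouse 4 and at 655 to 716 CPM in the others in collagen on day 3, and at 1403 against 629 to 811 CPM in Matrigel. All 757 tested genes on chromosome 9 had a median of 0.30 in mouse 4, and 88.9% of them were above 0, against 48.2% of all tested genes. The 4 members on chromosome 15, Ndufb9, Ndufa6, Atp5g2 and Cox6c, had a median of -0.40 in mouse 4, where the 536 tested genes of that chromosome had -0.26. The 8 members on chromosome 2 had -0.28, where all 1008 had -0.19. On chromosomes 9, 15 and 2 the members thus lay on the same side as the other genes, and the pattern was described after its values were seen. The 1 member on chromosome 12 was at -0.042, where the 469 tested genes had 0.102. Over all 101 tested members, mt- genes included, the median in mouse 4 was -0.164 and 33 were above 0. Over all tested genes the median was -0.01. The members were therefore also lower as a set in mouse 4, beyond the level of all genes.

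**Figure D5:**
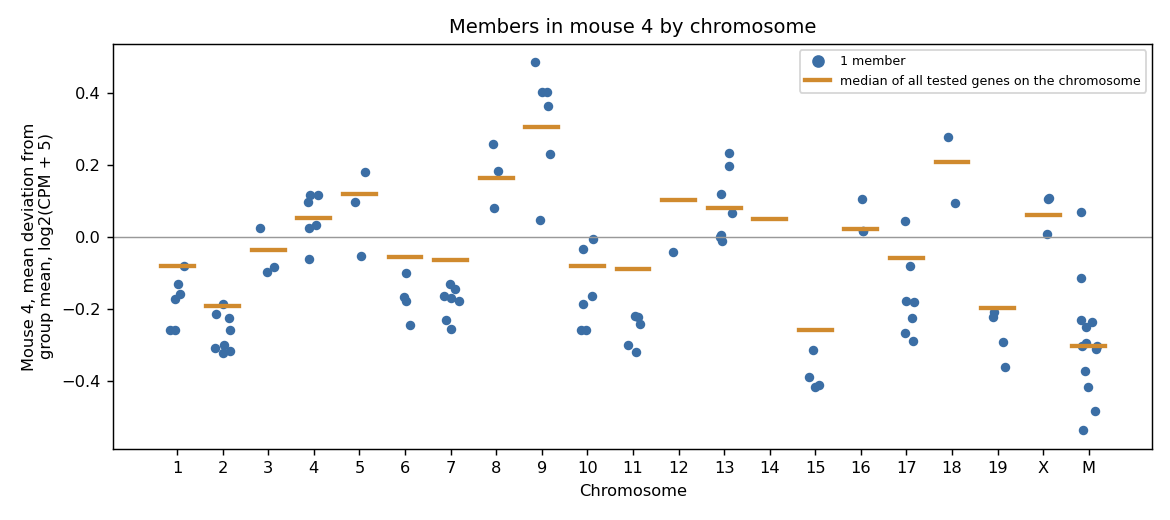
Mean deviation of mouse 4 from the group means for each tested member (points), by chromosome, with the median of all tested genes on that chromosome (bars). Members on chromosomes 8, 9 and 18 lie above 0 and those on chromosomes 2, 15 and 19 below 0, on the same side as the bars.

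Ndufa9, a complex I subunit on chromosome 6, had the widest spread between mice after the low isoforms Cox4i2 and Cox6b2. It was at 112 CPM in mouse 3 and at 62.1 to 67.9 CPM in the others in collagen on day 0, at 193 against 99.8 to 104 CPM on day 3, and at 149 against 81.2 and 94.0 CPM on day 5. In Matrigel mouse 3 was at 109.5, 216 and 144 CPM, again the highest on each day. The mean deviation of mouse 3 was 0.58, and that of the 75 tested genes within 5 Mb of Ndufa9 had a median of 0.33, with 66 of 75 above 0. With the spread between mice in the error, Ndufa9 rose from day 0 to day 3 in Matrigel (1.02 ± 0.33, adjusted p 0.0199) and had a change of 0.71 ± 0.33 in collagen (0.14); with the mouse as a block both were called (0.000145 in collagen). Sdhd, Cox5a and Ndufb9 are other members whose spread between mice was larger than most, and the block changed the call of Sdhd in both matrices, of Cox5a in collagen and of Ndufb9 in Matrigel.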

How the data were processed

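The deposited matrix holds UMI counts per gene and cell made by the authors, with no scaling, and all 39668312 entries were whole. Per the labels' protocols cells were barcoded with MULTI-seq, pooled, sorted as live and run on 10x 3' chemistry; Scanpy 1.4.4, Cell Ranger 3.0.2 and the build GRCm38/mm10 are listed in the submitters' processing notes. The deposited annotation gives each cell's day, mouse, matrix and the fraction of mitochondrial counts that the authors computed, which matched the matrix. The 3 pools shared 11 cell barcodes, and no doublet caller was run.

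Of 7620 cells, 7307 were tumour cells and 313 were 4T1. Cells were scaled to 10000 counts and clustered (2000 variable genes, 30 components, 15 neighbours, Leiden resolution 1.0; Scanpy 1.11.5, leidenalg 0.10.2) into 22 clusters, and clusters named from macrophage (227 cells), fibroblast (81) and T and NK cell markers (29) were left out, which left 6970. Sums of UMI counts were taken for each combination of mouse, day and matrix (21 sums, minimum 20 cells), scaled by TMM and tested with edgeR 4.0.16 in R 4.3.3 (quasi-likelihood F test, 1 fit of 6 groups, 13184 genes after the expression filter, Benjamini-Hochberg within each of 9 comparisons). Values after ± are SD for levels and SE for log2 changes. CPM is a count divided by the TMM-scaled total and set to a common scale, except in 4T1, which had 1 sum a pool, no scaling and log2(CPM + 5). A 3' UMI count does not scale with transcript length, and levels were not compared between genes.

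The labels give the same animals for every matrix and day, and the mouse therefore pairs the sums. The pairing is incomplete on day 5, where mouse 4 had no sum and mouse 1 had none in Matrigel. Deviations correlated within a mouse (median 0.304, lowest 0.072) more than between mice (-0.108), and each of the 21 sums had its highest correlation with another sum of its mouse. The fit with the mouse as a block is given where it changed a call. Counts of replicates differed beyond sampling noise: their chi-square, divided by its degrees of freedom, was at least 7.5 in 28 pairs. On counts simulated for collagen, day 3 against day 0, with 200 of 12702 genes changed by 2-fold, 16.5% were recovered and 2 other genes were called. The simulation gave every gene the same relative spread and no difference shared by the sums of a mouse. Its recovered share is therefore not the power for these members.

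The members, the lists beside them and the comparisons were chosen with earlier results of these data known. Within each complex the 4 called members with the smallest p are named, with all Sdh genes, mt- genes and isoform pairs, and up to 3 called genes of each list; 1 result that this rule takes in is not reported here. Alternatives were DESeq2 1.42.0, limma 3.58.1 on means over cells, other scalings, filters and sets of cells, and each mouse left out. Of 102 members 5 have an annotated copy named -ps, whose reads may be shared. Fewer transcripts per cell and a smaller share of cells that carry them cannot be told apart in a sum.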

Additional observations from a re-analysis of the deposited data

Results flagged for a closer look

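In 17 of 248 checks of members and shares in groups of 4 sums (6.9%), 1 mouse stood apart from the other 3 by Dixon's test at the 95% level, which chance does in about 1 of 20 groups. Mouse 4 was that sum in 11 of the 17. It was high for the complex II share on day 3 in collagen (0.05% of UMIs) and Matrigel (0.058%), the complex V share in collagen on day 3 (0.819%), Cox5a in collagen on day 3 (1056.92 CPM) and Atp5l in collagen on day 0 (463.52 CPM). It was low for 4 mt- genes in Matrigel on day 0: mt-Atp6 (3192.23 CPM), mt-Cytb (2081.15), mt-Nd1 (1063.36) and mt-Nd4l (180.4). It was also low for mt-Co1 in Matrigel on day 3 (3277.65 CPM) and mt-Nd5 in collagen on day 3 (606.82 CPM). The other 6 were in other mice. Mouse 3 was high for Cox7a1 in collagen on day 0 (1.63 CPM), Ndufa4 in collagen on day 3 (1584.02 CPM) and mt-Nd6 in Matrigel on day 3 (55.18 CPM). Mouse 2 was high for Atp5j2 in Matrigel on day 0 (401.52 CPM) and Ndufa4l2 in Matrigel on day 3 (5.59 CPM) and low for Ndufv3 in collagen on day 0 (43.57 CPM).

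The difference between the matrices itself changed with the day in 3 tests. For Ndufaf3 the change was -0.943 (log2) from day 0 to day 3 and -1.492 from day 0 to day 5, and for Cox7c it was -0.736 from day 0 to day 5, each called in edgeR's fit across all genes.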

How the results depend on the processing

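The same 4 mice gave the sums of days 0 and 3. On day 5 only mice 1, 2 and 3 in collagen and 2 and 3 in Matrigel did, so the pairing is incomplete there. The fit with the replicate block (the mouse) raised the counts of called nuclear members, and those of all genes as well. Between the matrices it called 36 nuclear members on day 0, 6 on day 3 and 15 on day 5 (24.3%, 4.38% and 6.27% of all genes). From day 3 to day 5 it called 38 in collagen and 17 in Matrigel (10.5% and 12.7% of all genes). For the change of the matrix difference it called 25 (day 3) and 45 (day 5), where 5.34% and 13.7% of all genes were called. For mt- genes the block gave 8 on day 0 between the matrices, 5 from day 3 to day 5 in collagen, and 1 for each change of the difference. A count of 1 of 13 is near the share of all genes for those changes. The block ended no call of the 95 changes of named members and turned no sign.

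DESeq2 called 10, 1 and 5 nuclear members between the matrices on days 0, 3 and 5 (10.7%, 1.37% and 2.0% of all genes, so that the first 2 are near the share of all genes), 15 and 6 from day 3 to day 5 in collagen and Matrigel (3.61% and 4.19%), and 6 and 14 for the changes of the difference (1.24% and 4.19%), with 1 mt- gene on day 0 and 1 for the later change. With only the groups compared in the fit the counts were 2 on day 0 between the matrices, 0 and 0 from day 3 to day 5, 0 and 1 for the changes, and 1 mt- gene from day 3 to day 5 in Matrigel. Limma on means over cells gave 2 on day 0, 0 from day 3 to day 5 in collagen, 0 and 0 for the changes, and 2 mt- genes from day 0 to day 3 in collagen; it also turned the sign of mt-Nd5 in that comparison (-0.085). Without the low-count filter 1 was called from day 3 to day 5 in collagen and 0 and 1 for the changes. With a minimum of 10 cells per sum 5 and 7 nuclear members and, in Matrigel, 5 mt- genes were called from day 3 to day 5, and 1 mt- gene for the later change. The earlier change gave 0 with the total without mt- genes, with all mouse-labelled cells, and with cells of at most 5% mitochondrial UMIs, which gave 2 between the matrices on day 0. The later change gave 1 without cells of the 4T1 cluster and 5 without clusters of few UMIs. The cause of these shifts was not tested.

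The nuclear share in collagen was 2.19% on day 0 without clusters of few UMIs and 2.45% on day 5 in cells of at most 5% mitochondrial UMIs, in which the mt- share in collagen was 3.03% on day 0 and 4.00% on day 5; that setting left no sum for Matrigel on day 5. Leaving out 1 mouse at a time gave these ranges of called nuclear members: 1 to 6 between the matrices on day 0 and 0 to 1 on day 5, 35 (without mouse 2) to 64 (without mouse 4) from day 0 to day 3 in collagen, 0 to 9 and 0 to 6 from day 3 to day 5 in collagen and Matrigel, and 0 to 0 and 0 to 2 for the changes of the difference. For mt- genes they were 0 to 1 on day 0, 4 to 9 from day 0 to day 3 in collagen, 1 to 5 and 1 to 8 from day 3 to day 5, and 0 to 1 for the later change. The share of all genes called was computed only for the fit without a block, the block fit and DESeq2. Shifts of counts under the other settings therefore cannot be ascribed to the members.

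Over all alternatives, the 95 changes of named members kept direction and call 1342 times, lost the call 149 times and reversed once. Precision rests on 4 mice, 2 of them in Matrigel on day 5, on the day and the pool being 1 and the same, and on few UMIs per cell on day 0.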
